A study of Bos taurus with 18 samples.

Results

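ZNF is the symbol prefix given to a large group of genes that encode proteins with zinc finger domains, most of them of the C2H2 type. The genes described here are the 87 whose only symbol in the platform annotation of a bovine Affymetrix array starts with ZNF followed by a digit, out of 9155 genes with a probe set of their own. They are measured by 114 of the 24016 tested probe sets. A single probe set measured 68 of them, 2 probe sets measured 13, and 3 or more measured the other 6. Each gene is represented by its brightest probe set, the one with the highest mean over all 18 arrays. A further 3 probe sets had several symbol entries that included a ZNF symbol, in part repeats of the same symbol, and were left out.

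The arrays were hybridised with RNA from in vitro produced bovine blastocysts on day 7 after insemination. Each array received RNA pooled from 60 embryos of one sex sired by one bull, starting from 50 ng. Semen sorted for X- or Y-bearing sperm from 3 bulls gave 6 groups: female and male embryos of bull 1, of bull 2 and of bull 3, with 3 arrays each. Each bull is a single sire, so a difference between bulls cannot be told apart from any other difference between the embryo sets made with their semen. Nothing in the sample descriptions ties the 3 pools of a group to independent rounds of in vitro fertilisation. The p-values therefore measure the spread between these pools, which may be partly technical.

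A C2H2 finger is a short loop folded around a zinc ion, and rows of such fingers can read DNA base sequence or bind RNA. Many ZNF proteins also carry a KRAB domain. KRAB binds the corepressor TRIM28, which brings in the histone H3 lysine methyltransferase SETDB1 and heterochromatin proteins, and this system silences transposable elements in early mammalian embryos. Other ZNF proteins act in ribosome assembly, RNA processing or chromosome segregation. KRAB zinc finger genes lie in clusters that arose by tandem duplication.

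The measured ZNF genes were concentrated on 2 chromosomes. Chromosome 18 held 25 of the 87 (28.7%), against 5.37% of all 9155 genes, and chromosome 25 held 11 (12.6%), against 3.75%. In the cattle gene table (assembly ARS-UCD2.0), 92 of 303 protein-coding ZNF genes (30.4%) lie on chromosome 18, so that the measured share was close to the share in the genome. The 87 genes described here make up 28.7% of the number of ZNF genes in that table. Probe sets without a single gene entry were not counted, so the array may cover more. Only ZNF75D lies on the X chromosome among the measured genes, while the table lists 10 X-linked ZNF genes.

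XIST, the noncoding RNA of X inactivation, separated the labelled sexes: it read 8.87 to 9.57 on the log2 scale in female pools and 5.93 to 7.28 in male pools. Of the Y-linked genes, LOC100335202 read from 3.93 to 4.51 in females and from 4.54 to 5.72 in males, without overlap. ZFY read at most 2.44 in either sex, and TSPY from 6.81 to 7.18 in females and from 6.68 to 7.24 in males. Probe sets with no gene entry were not looked at for this. The lowest female minus male difference was -3.59 over all probe sets, against -1.03 over all genes. Some markers of the blastocyst lineages were bright. KRT18 of the trophectoderm averaged 14.04, POU5F1 of the inner cell mass 11.93 and FN1 of the primitive endoderm 13.06. However, 5 of 11 trophectoderm, 1 of 4 inner cell mass and 4 of 8 primitive endoderm markers were below the background limit of the next paragraph. Markers of other cells were mostly dim, with 12 of 16 cumulus and granulosa genes, 7 of 8 oocyte genes, 6 of 8 sperm genes and 5 of 6 blood genes below the background limit defined in the next paragraph. The mean level of the 4 measured inner cell mass markers ran from 8.83 to 9.09 in female pools and from 8.59 to 8.89 in male pools, and that of the 11 trophectoderm markers from 7.58 to 8.09 and from 7.57 to 8.10. Single trophectoderm markers moved both ways: 6 of 11 differed between the sexes at an adjusted p under 0.05 in limma (54.5%, against 20.8% of all genes; log2 differences, female minus male, in brackets), SSLP1 (0.75) and IFNT2 (0.59) higher in females and PAG2 (-0.68), TFAP2A (-0.54), PAG11 (-0.48) and ASCL2 (-0.42) higher in males. Of the inner cell mass markers 2 of 4 differed, both higher in females, SPP1 (0.56) and STAT3 (0.28). Among the sperm markers 4 of 8 differed, the protamine gene PRM1 (1.73) and TNP1 (0.88) higher in females and SPA17 (-0.28) and ODF2 (-0.25) higher in males. Calls for sex were also made for 2 of 8 primitive endoderm, 4 of 16 cumulus, 1 of 8 oocyte and 3 of 6 blood markers. The part of these markers in the sex differences of ZNF genes was not tested. In these bulk pools, fewer cells of a type and less RNA per cell cannot be told apart. On 4 arrays the values of all probe sets deviated more widely from the gene means than on the others (replicate 3 of female bull 1, replicate 2 of male bull 1, replicate 1 of male bull 2 and replicate 3 of male bull 3).

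ZNF genes gave low to moderate signals. Their mean log2 values ran from 2.46 to 10.82 with a median of 6.60, while the median over all 9155 genes was 7.22. To judge which were near background, 39 measured genes whose expression is restricted to tissues such as retina, pituitary or muscle were taken as a yardstick. The 75th percentile of their means, 6.53, was used as the limit. This limit is loose, since that list has a median of 4.18 but also holds bright probe sets such as the one for the pituitary hormone gene POMC at 13.46. By it, 42 of the 87 ZNF genes were near background and 45 were above it, and 24 were also below the array-wide median of 5.36. For a gene near background the value may hold little signal from its own transcript.

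ZNF706, which encodes a very small zinc finger protein, had the highest value of the family, 10.82 ± 0.069 (SD, n = 18). It was followed by ZNF638 at 9.55, whose product binds RNA, ZNF131 at 9.40, a BTB-domain transcription factor, and ZNF622 at 9.18, which acts in assembly of the large ribosomal subunit. ZNF317 at 9.11 and ZNF830 at 8.63 complete the 6 highest. At the other end stood ZNF385B at 2.46, ZNF432 and ZNF644 both at 2.59, ZNF521 at 2.86, ZNF569 at 2.97 and ZNF667 at 3.21. Probes differ in how strongly they bind, so these values rank probe sets and not transcript abundance.

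Levels differed little between the 6 groups. The range of the 6 group means of a gene had a median of 0.32 log2 units over the ZNF genes and 0.31 over all genes, and it was under 0.5 for 71 of 87 ZNF genes (81.6%, against 81.9% of all genes). The SD within groups had a median of 0.16, against 0.15 over all genes. ZNF513 had the narrowest range of group means, 0.10, and ZNF706 spanned 0.11. A range above 1 was reached by 2 genes, ZNF79 with 1.19 and ZNF207 with 1.16, both through differences between bulls.

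**Figure D1:**
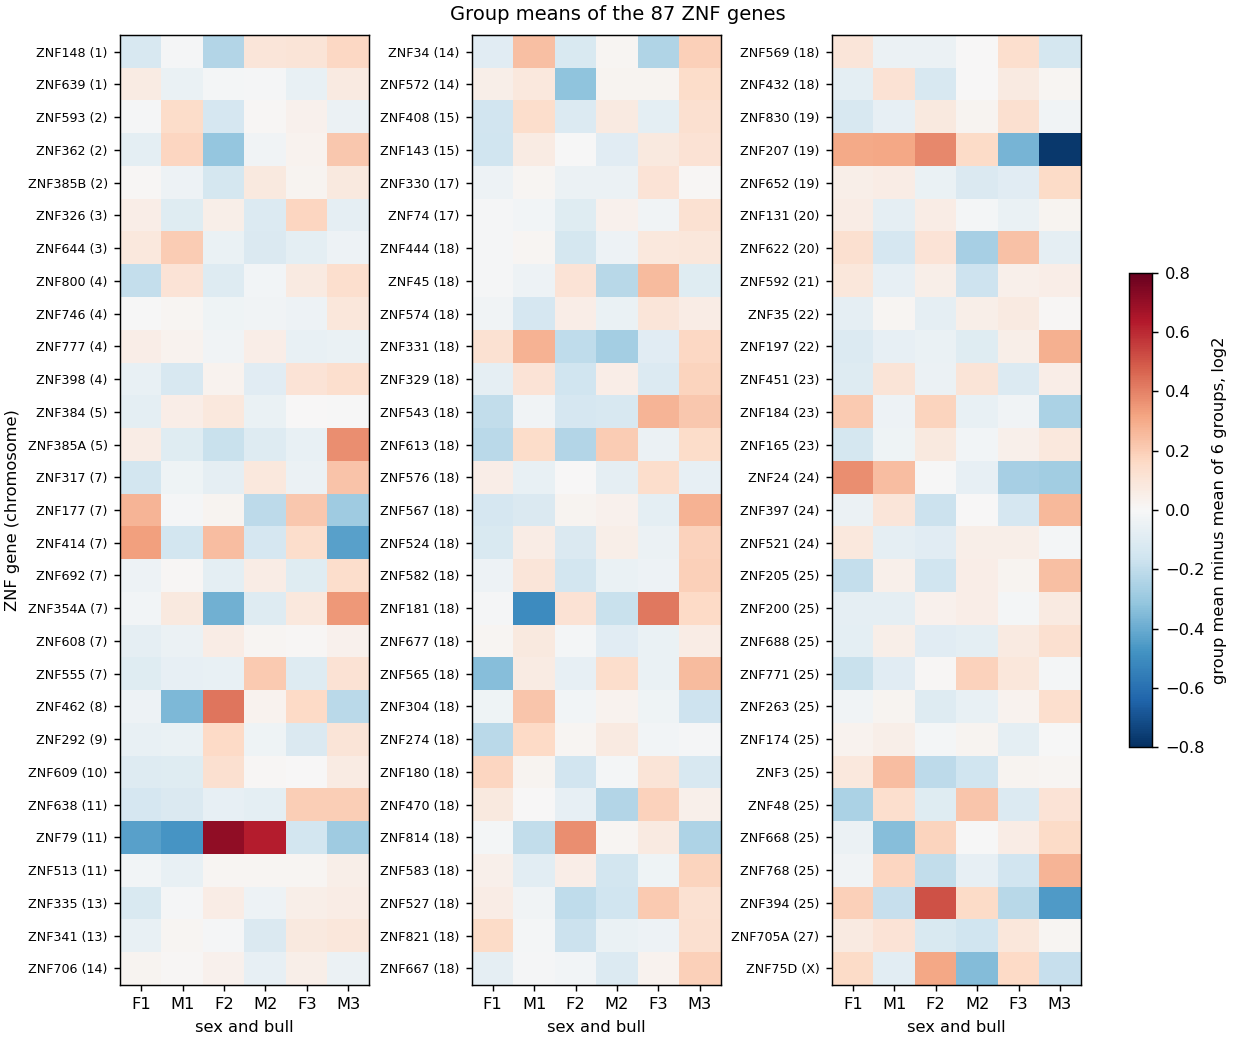
Mean log2 value of each of the 87 ZNF genes in the 6 groups (F, female; M, male; number, bull; n = 3 arrays each) minus the mean of the 6 groups, with genes ordered by chromosome, given in brackets, and then by level. Most cells are pale, 71 of 87 genes spanning under 0.5 log2 units, while ZNF79 stands out as high in both bull 2 groups and ZNF207 as low in both bull 3 groups.

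The first comparison asked which ZNF transcripts differed between female and male blastocysts, averaged over the bulls. Of the 87 genes, 17 (19.5%) differed at an adjusted p under 0.05 in limma, 7 higher in females and 10 higher in males. Over all genes, 20.8% passed, 11.5% higher in females and 9.31% higher in males, so the ZNF share was near the background. The differences were small: their size had a median of 0.30 log2 units among the 17 genes, and none reached 1.5-fold. Over all 87 genes the median difference was -0.04 (all genes -0.01). All 17 had the same sign in the 3 bulls, as did 28 of the other 70. The calls rest on the average over these same bulls, so the shared sign adds no support to them. With bull 1, bull 2 or bull 3 left out, and so with fewer arrays, 11, 7 and 5 of the 17 were still called.

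**Figure D2:**
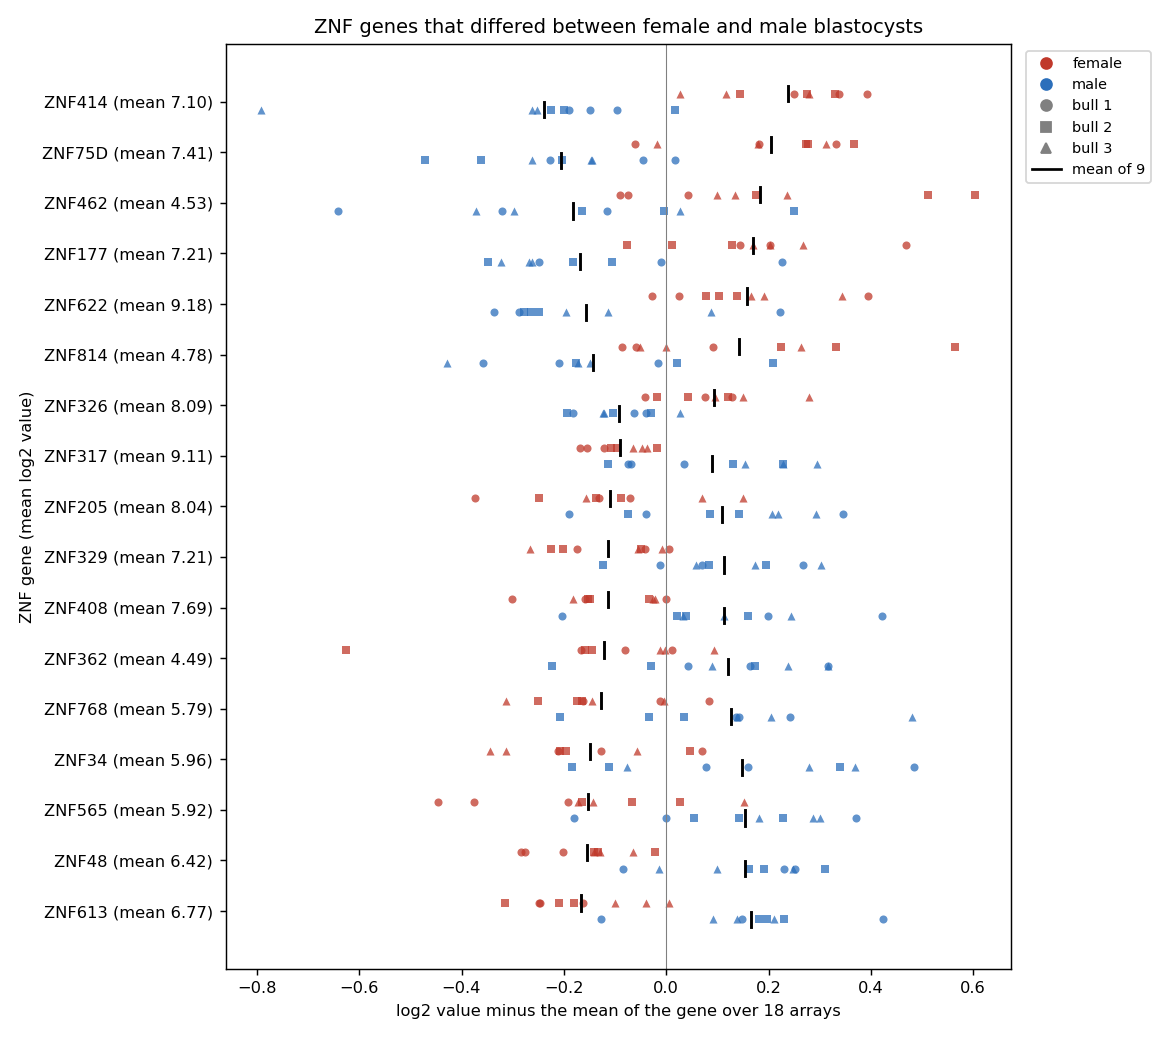
Log2 value of each of the 18 arrays minus the mean of the gene, for the 17 ZNF genes that differed between the sexes (red, female; blue, male; marker shape, bull; black bar, mean of 9 arrays), with the mean log2 value of each gene on the left. Female and male arrays are fully apart for ZNF414 alone; for the other 16 genes the highest array of the lower sex passes the lowest array of the higher sex.

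ZNF414 showed the largest sex difference. Female pools read from 7.12 to 7.49 with a median of 7.37, and male pools from 6.31 to 7.12 with a median of 6.90. The lowest female array, at 7.125, was just above the highest male array, at 7.116, and no other ZNF gene separated the sexes without overlap (3.11% of all genes did so with females above). The means were 7.34 ± 0.12 and 6.86 ± 0.22 (SD, n = 9 each), a difference of 0.48 log2 units (SE 0.073, 1.39-fold, adjusted p = 0.000132). Without replicate 3 of male bull 3, the lowest array, the difference was 0.42. These values are of the brightest of its 3 probe sets. The others had differences of 0.02 and 0.00, and the mean over all 3 had 0.17, which did not pass (adjusted p = 0.0545).

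ZNF75D, the single X-linked member, read from 7.35 to 7.78 in female pools, with a median of 7.69, and from 6.94 to 7.43 in male pools, with a median of 7.21. The sexes overlapped only between 7.35 and 7.43. Its difference was 0.41 log2 units (SE 0.066, 1.33-fold, adjusted p = 0.000238). By bull it was 0.24 in bull 1, 0.65 in bull 2 and 0.34 in bull 3. With bull 2 left out it no longer passed (adjusted p = 0.0605).

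The other 5 genes higher in females were autosomal. ZNF177 read from 7.14 to 7.68 in females (median 7.38) and from 6.86 to 7.44 in males (median 6.96), a difference of 0.34 (SE 0.068, adjusted p = 0.0016; 0.106 without bull 3). ZNF622, of ribosome assembly, read from 9.15 to 9.57 (median 9.32) and from 8.84 to 9.40 (median 8.93), a difference of 0.31 (SE 0.078, adjusted p = 0.00882). ZNF326, a subunit of the DBIRD complex that links RNA polymerase II with splicing, differed by 0.18 (SE 0.053, adjusted p = 0.0206). Its female arrays lay between 8.05 and 8.37 and its male arrays between 7.90 and 8.12, and without replicate 1 of female bull 3 the adjusted p was 0.0519. The remaining pair was near background: ZNF462, which has a role in chromatin organisation, differed by 0.36 (SE 0.084, adjusted p = 0.00509) around a mean of 4.53, and ZNF814 by 0.28 (SE 0.075, adjusted p = 0.0128) around a mean of 4.78. Both overlapped widely between the sexes. With bull 2 or bull 3 left out, ZNF622 (adjusted p = 0.145 and 0.069), ZNF326 (0.12 and 0.202) and ZNF814 (0.116 and 0.0889) did not pass. Averaged over its probe sets, ZNF622 had 0.11 (adjusted p = 0.266).

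Among the 10 genes higher in males, ZNF613 and ZNF48 had the largest differences. ZNF613 read from 6.65 to 7.20 in males (median 6.96) and from 6.46 to 6.78 in females (median 6.59), and female minus male was -0.33 (SE 0.063, 1.26-fold, adjusted p = 0.001; 0.0687 without bull 2). ZNF48 read from 6.34 to 6.73 in males (median 6.61) and from 6.136 to 6.398 in females (median 6.28), a difference of -0.31 (SE 0.058, adjusted p = 0.000926). With a mean of 6.42, ZNF48 fell just under the background limit. Its call held under all the other settings tried, those with a bull left out included.

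ZNF565 differed by -0.31 (SE 0.073, adjusted p = 0.00648) and ZNF768, whose product binds a family of interspersed repeats, by -0.25 (SE 0.063, adjusted p = 0.00917). ZNF34 differed by -0.30 (SE 0.088, adjusted p = 0.0266) and ZNF362 by -0.24 (SE 0.075, adjusted p = 0.0338). All 4 were near background, with means of 5.92, 5.79, 5.96 and 4.49. When 1 array was left out in turn, ZNF34 lost its call in 8 of 18 fits and ZNF362 in 9, while ZNF565 and ZNF768 kept theirs in all 18. With bull 3 left out, however, ZNF565 had an adjusted p of 0.055 and ZNF768 a difference of -0.17 (adjusted p = 0.191). ZNF34 did not pass without bull 1 or bull 3, and ZNF362 not with any 1 bull left out.

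ZNF329, ZNF408, ZNF205 and ZNF317 were above background. ZNF329 differed by -0.23 (SE 0.064, adjusted p = 0.0213). ZNF317, the brightest gene that was higher in males, had a median of 9.24 in males and 9.02 in females, a difference of -0.18 (SE 0.053, adjusted p = 0.0245). ZNF408, which is known from inherited disease of the retina, differed by -0.23 (SE 0.074, adjusted p = 0.0429), and ZNF205 by -0.22 (SE 0.073, adjusted p = 0.0499). These last 2 sat at the threshold. The call of ZNF408 was lost in 15 of 18 fits without 1 array and was kept only without replicate 2 of female bull 1, replicate 3 of male bull 1 or replicate 3 of male bull 3. That of ZNF205 was lost in 14 and kept only without replicate 2 of female bull 1, replicate 1 of female bull 3, replicate 3 of male bull 1 or replicate 3 of male bull 2. Without replicate 1 of female bull 3, ZNF329 had an adjusted p of 0.0528, and ZNF317 lost its call in 4 fits (without replicate 3 of female bull 2, replicate 2 or 3 of male bull 2 or replicate 1 of male bull 3). All 4 genes lost their calls with any 1 bull left out.

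Calls were made at low and at high signal. Of the 42 ZNF genes near background 7 passed (16.7%, against 14.5% of all genes near background), and of the 45 above it 10 passed (22.2%, against 25.3%). The 70 genes that did not pass lay between -0.24 for ZNF397 and 0.35 for ZNF181. ZNF181 just missed the threshold (adjusted p = 0.0551) with a larger difference than most called genes and a larger SE of 0.12; its male arrays ran from 4.94 to 6.61.

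**Figure D3:**
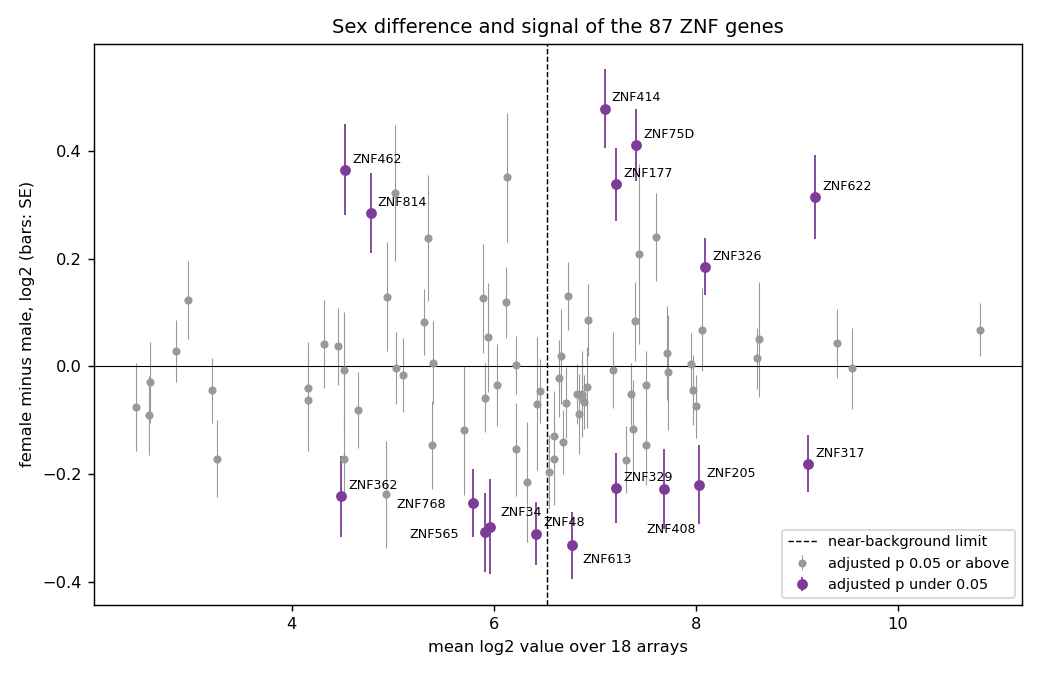
Female minus male difference (log2, bars SE) against the mean log2 value over 18 arrays for the 87 ZNF genes; purple points have an adjusted p under 0.05 and the dashed line is the near-background limit of 6.53. The 17 purple points lie on both sides of the limit, 7 to the left and 10 to the right, and all sit between -0.33 and 0.48.

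By role, 9 of 13 listed proteins of RNA metabolism, the ribosome or the spindle were measured, and 2 of them differed between the sexes (22.2%, against 20.8% of all genes), ZNF622 and ZNF326, both higher in females. The others included ZNF593 at -0.07 (adjusted p = 0.469), which acts in maturation of the large ribosomal subunit, and ZNF706 at 0.07 (adjusted p = 0.412). Among 12 measured of 24 listed transcription regulators, ZNF462 alone passed (8.33%). ZNF148 had -0.17 (adjusted p = 0.211), ZNF274, which recruits SETDB1 to the 3' ends of zinc finger genes, -0.15 (adjusted p = 0.275), and ZNF143, an activator bound near many promoters, -0.06 (adjusted p = 0.647). The other 66 ZNF genes lay outside both lists, and 14 of them passed (21.2%), 4 higher in females and 10 in males.

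By position, 4 of 25 genes on chromosome 18 (16%), 3 of 11 on chromosome 25 (27.3%) and 10 of 51 elsewhere (19.6%) differed between the sexes. Over all genes of chromosomes 18 and 25 the shares were 18.7% and 17.8%. The 3 on chromosome 25, ZNF48, ZNF768 and ZNF205, were all higher in males. Of the 61 called among all genes of that chromosome, 38 were higher in males and 23 in females. Of 10 pairs of ZNF genes with no other protein-coding gene between them, 3 pairs had 1 called member, and in none were both called. The share of such pairs over all genes was not counted, so this count says nothing particular about neighbouring ZNF genes. ZNF48 at -0.31 lies beside ZNF771 at -0.05, ZNF565 at -0.31 beside ZNF567 at -0.13, and ZNF329 at -0.23 beside ZNF274 at -0.15.

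The sex difference was next taken within each bull, with 3 female and 3 male arrays. In bull 1, ZNF414 (0.47, adjusted p = 0.0401) and ZNF48 (-0.39, adjusted p = 0.035) passed, 2 of 87 against 6.03% of all genes. In bull 2, ZNF75D (0.65, 1.57-fold, adjusted p = 0.0024) and ZNF613 (-0.44, adjusted p = 0.0309) passed, against 4.59%. In bull 3, ZNF177 (0.50, adjusted p = 0.0186), ZNF414 (0.58, adjusted p = 0.0122) and ZNF768 (-0.43, adjusted p = 0.0318) passed, against 5.92%. Without 1 array of a bull these counts went as low as 0 in bull 1, 1 in bull 2 and 0 in bull 3.

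Whether the sex difference depended on the bull was tested as an interaction. The interaction test in limma called 0 of 87 ZNF genes, and among all 9155 genes it also called 0 (0%). In this test 0 of the 87 had an unadjusted p under 0.05, against 194 of all genes (2.12%), a share that is itself small. ZNF75D came closest, with an unadjusted p of 0.0505. The next smallest unadjusted p-values in limma, 0.0613 and 0.068, belonged to ZNF180 and ZNF583, both near background. ZNF180 had sex differences of 0.15, -0.13 and 0.23 in bulls 1, 2 and 3, and ZNF583 had 0.12, 0.20 and -0.21. A miss does not show that the bulls were alike: with 3 arrays per group, the sex difference of ZNF75D within a bull had an SE of 0.11. The interaction compares such differences between bulls, so its own SE is larger than that.

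Bulls were compared next, averaging the sexes. Between bull 2 and bull 1, 2 of 87 ZNF genes passed (2.04% of all genes), between bull 3 and bull 1, 4 (3.6%), and between bull 3 and bull 2, 4 (3.33%). The comparisons share arrays, so that a gene set apart in one bull appears in 2 of them.

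ZNF79, a KRAB zinc finger gene on chromosome 11, had the largest bull difference of the family. In bull 2 the female arrays read 7.58, 7.68 and 7.66 and the male arrays 7.53, 7.62 and 7.54. In bull 1 they read 6.58, 6.35 and 6.56 and 6.57, 6.58 and 6.23, and in bull 3 6.83, 6.78 and 6.74 and 6.43, 6.64 and 6.87. All 6 bull 2 arrays were thus above all 12 others. Bull 2 exceeded bull 1 by 1.13 log2 units (SE 0.082, 2.18-fold, adjusted p = 1.03e-06) and bull 3 fell short of bull 2 by 0.88 (difference -0.88, 1.85-fold, adjusted p = 1.06e-05). The difference between bulls 2 and 1 was 1.15 in female arrays alone and 1.10 in male arrays alone (adjusted p = 0.000688 and 0.0937). The mean level of the cumulus and granulosa markers ran from 5.06 to 5.55 in bull 1, from 5.31 to 5.77 in bull 2 and from 5.18 to 5.71 in bull 3; single markers of the list moved with bull 2. Of the 16, 3 differed between bulls 2 and 1 (18.8%, against 2.04% of all genes): POSTN (2.16, 4.48-fold, adjusted p = 0.0197) and DCN (0.84, adjusted p = 0.00383) were higher in bull 2 and CYP19A1 (-0.49, adjusted p = 0.03) lower. VIM, which did not pass, had 1.59 (adjusted p = 0.103). In the whole list 9 of 16 markers were higher in bull 2 than in bull 1, with a median difference of 0.14. For bull 3 minus bull 2, DCN had -0.66 (adjusted p = 0.0114) and POSTN -1.36 (adjusted p = 0.0936). The part of these cells in the ZNF79 difference was not tested.

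ZNF207, whose product binds microtubules and the checkpoint protein BUB3 in mitosis, was lower in bull 3. It read from 5.75 to 7.40 there (median 6.91), from 7.22 to 8.16 in bull 1 (median 7.83) and from 7.39 to 7.86 in bull 2 (median 7.75). The bull 3 difference was -0.88 from bull 1 (SE 0.20, adjusted p = 0.0252) and -0.84 from bull 2 (adjusted p = 0.0266). Replicate 3 of male bull 3, at 5.75, was more than a unit below every other array of that bull.

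ZNF24, a SCAN-domain regulator of progenitor cell growth, read from 7.55 to 7.98 in bull 3 and from 8.12 to 8.64 in bull 1, without overlap, with bull 2 between them at 7.90 to 8.20. Bull 3 minus bull 1 was -0.58 (SE 0.095, 1.49-fold, adjusted p = 0.00327). ZNF543 was higher in bull 3 than in bull 1 (0.35, adjusted p = 0.0411) and bull 2 (0.37, adjusted p = 0.0313). ZNF181 was higher in bull 3 than in bull 1 (0.55, adjusted p = 0.0442), with replicate 2 of male bull 1 at 4.94 as the lowest array. ZNF394 was lower in bull 3 than in bull 2 (-0.67, adjusted p = 0.0208), and ZNF462 was higher in bull 2 than in bull 1 (0.43, adjusted p = 0.0427); both were near background, as was ZNF181.

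**Figure D4:**
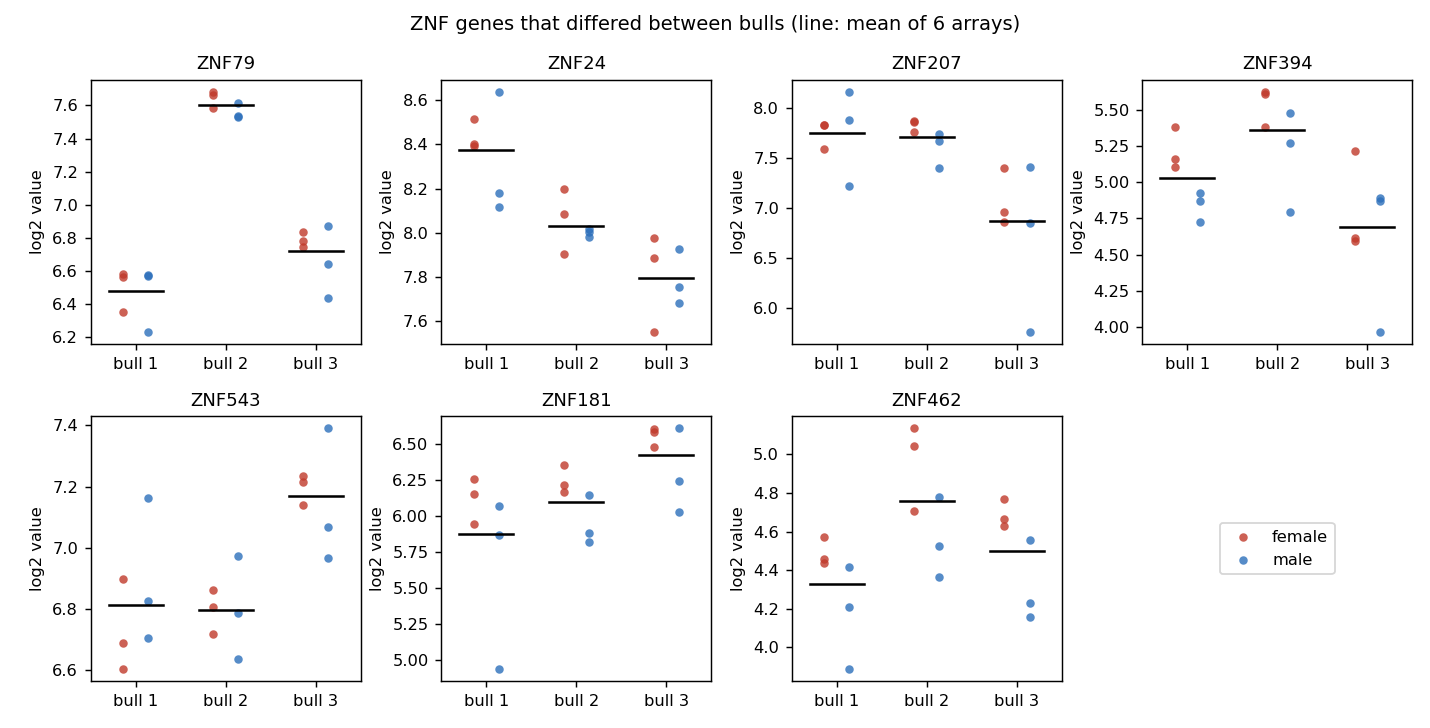
Log2 value per array of the 7 ZNF genes that differed between at least one pair of bulls (red, female; blue, male; black line, mean of the 6 arrays of a bull; each panel has its own axis range). Bull 2 stands above both other bulls for ZNF79, at 7.53 to 7.68, while the bull 3 arrays of ZNF207 reach down to 5.75.

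The bull 3 arrays also differed in a measure of RNA integrity. The log2 signal of the 5' minus that of the 3' probe sets of the array's control transcripts ran from -1.27 to -0.36 in bull 3 and from -0.44 to 0.45 in bulls 1 and 2. With this measure as a covariate, 0 ZNF genes passed between bulls 3 and 1 and 1 between bulls 3 and 2, ZNF79 (-0.94, adjusted p = 0.000302). ZNF207 then had -0.09 (adjusted p = 0.992) and ZNF24 -0.34 (adjusted p = 0.66) for bull 3 minus bull 1. ZNF543 still had 0.31 there, but with an SE of 0.14 it did not pass (adjusted p = 0.832). The measure hardly overlapped between bull 3 and the other bulls, so bull and measure cannot be told apart in these fits. How many of all genes passed with this covariate was not counted. The sexes were less apart in it (female arrays -0.79 to 0.05, male arrays -1.27 to 0.45), and all 17 genes that differed by sex also passed with this covariate.

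Single calls between bulls also turned on single arrays. ZNF79 and ZNF24 kept their calls whichever array was left out. ZNF462 lost its call in 12 of 18 such fits, ZNF181 in 13 and ZNF394 in 6. ZNF543 lost its call in 12 for bull 3 against bull 1 and in 8 against bull 2, and ZNF207 in 6 and 7. Across the family, in bull 3 minus bull 1, 62 of 87 ZNF genes were positive with a median of 0.07, against 4102 of 9155 genes and a median of -0.02. For bull 3 minus bull 2, 64 of 87 were positive with a median of 0.07, against 5526 of 9155 genes and a median of 0.03. On replicate 3 of male bull 3 the median deviation of the 87 genes from their means was 0.12, against 0.034 over all probe sets. On the other bull 3 arrays it lay between -0.0035 and 0.054. Replicate 2 of male bull 1 had 0.122, but there all probe sets had a median deviation of 0.135. The other bull 1 arrays lay between -0.061 and -0.015 for the 87 genes.

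For 19 ZNF genes, further probe sets gave a second reading of the sex difference. In 12 of them all probe sets had the same sign. None of the 4 genes called by the brightest probe set was also called by another. ZNF414 had 0.48 on its brightest probe set but 0.02 and 0.00 on the others, whose means were 5.33 and 4.81. ZNF462 had 0.36 against -0.09, -0.14 and -0.14, ZNF622 0.31 against -0.09 on a probe set at 3.24, and ZNF317 -0.18 against -0.04 and -0.09. In 3 genes only a dimmer probe set passed: ZNF292 (-0.36, adjusted p = 0.0222, at 3.42), ZNF652 (-0.28, adjusted p = 0.0205, at 3.24) and ZNF692 (-0.28, adjusted p = 0.0237, at 6.55). Probe sets of one gene differed in mean by up to 5.94 log2 units, in ZNF622.

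**Figure D5:**
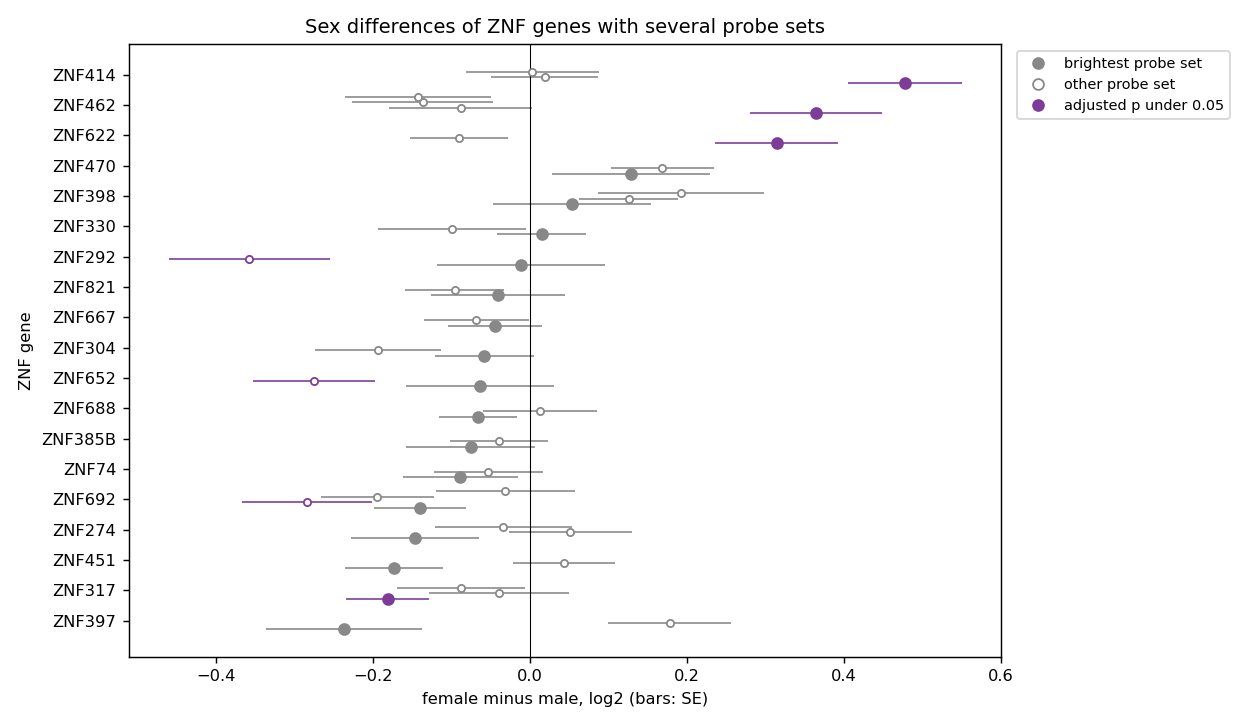
Female minus male difference (log2, bars SE) of each probe set of the 19 ZNF genes that have several, with filled points for the brightest probe set, open points for the others, and purple for an adjusted p under 0.05. The 4 purple filled points (ZNF414, ZNF462, ZNF622 and ZNF317) have only grey open points beside them, and the 3 purple open points belong to ZNF292, ZNF652 and ZNF692.

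The partners of KRAB zinc finger proteins were read from a list of the TRIM28 pathway, of which 19 of 24 genes were measured. Of these 4 differed between the sexes (21.1%, against 20.8% of all genes), 2 in each direction. TRIM28 itself was bright, from 11.17 to 11.37 in females and 11.11 to 11.45 in males, and its difference was 0.04 (SE 0.056, adjusted p = 0.705). SETDB1 had 0.10 (SE 0.069, adjusted p = 0.408). ATF7IP, which stabilises SETDB1, was higher in females without overlap, from 8.09 to 8.41 against 7.23 to 7.99 (0.60, 1.51-fold, adjusted p = 0.000115). The X-linked histone chaperone gene RBBP7 was also higher in females without overlap (0.41, adjusted p = 8.22e-06). Higher in males were the H3 lysine methyltransferase gene EHMT1 (-0.19, adjusted p = 0.0268) and the heterochromatin protein gene CBX3 (-0.15, adjusted p = 0.0317), which are named here because the count is small.

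A list of other zinc finger regulators, all of the C2H2 type except the CCCH protein gene ZFP36L1, held 18 measured genes. Of these 7 differed between the sexes (38.9%, against 20.8% of all genes), 6 higher in females. EGR1, an immediate early gene, had the largest difference, 0.76 log2 units (SE 0.077, 1.69-fold, adjusted p = 1.2e-06), with female arrays from 8.30 to 8.85 and male arrays from 7.66 to 8.04; averaged over its probe sets it had 0.36 (adjusted p = 0.000791). X-linked ZFX had 0.41 (adjusted p = 0.00017), as large as ZNF75D. ZBTB33, named here because it is also X-linked, had 0.29 (adjusted p = 0.0437) around a mean of 3.56, near background. KLF13 and SNAI1 had 0.28 each (adjusted p = 0.00625 and 0.00637), and VEZF1 was higher in males (-0.22, adjusted p = 0.0153). With bull 2 left out KLF13 and SNAI1 did not pass (adjusted p = 0.142 and 0.0825), and with bull 3 left out SNAI1 and VEZF1 did not (0.0668 and 0.12). VEZF1 also did not pass without bull 1 (0.134), nor SNAI1 as the mean over its probe sets (0.0814). CTCF, which organises chromatin loops, had -0.10 (adjusted p = 0.419). ZFY, the Y-linked relative of ZFX, was dim in both sexes, from 2.06 to 2.44 in females and from 2.21 to 2.31 in males, so that this probe set gave no separation of the sexes.

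The most extreme values of the ZNF genes were gathered on a few arrays. Replicate 3 of male bull 3 held the highest or lowest value of 30 of the 87 genes (34.5%, against 27.5% of all genes), the highest in 23 of them. Replicate 2 of male bull 1 held 25 (28.7%, against 31.5%), and replicate 3 of female bull 1 held 18 (20.7%, against 23.5%). The median of the 87 values per array stayed between 6.42 and 6.69. Without the 4 arrays of wide spread, 15 ZNF genes differed between the sexes, of which 12 were among the 17.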

How the data were processed

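Each array has 1 deposited column of log2 expression per probe set. Per the submitters' processing notes, RMA and Partek 6.4 were used, with no word on which step each served; that the scale is log2 was read from the values. RMA draws the arrays' distributions together, so a shift of all transcripts cannot be seen. No scan dates were at hand, and batches were not analysed here.

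The 112 control probe sets among 24128 were left out. Of the rest, 13292 have 1 gene entry in the platform annotation, 86 several entries and 10638 none. All 87 ZNF genes matched the ARS-UCD2.0 gene table, which served for names, chromosomes and neighbours. In limma 3.58.1 (R 4.3.3), lmFit and eBayes fitted the means of the 6 groups to all 24016 probe sets, leaving 12 degrees of freedom. Adjusted p-values are Benjamini-Hochberg values over all probe sets, and under 0.05 counts as a call. A fold is 2 raised to the log2 difference. The script was tested on simulated data. The number of arrays limits the precision.

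Genes were named by a rule: up to 12 per direction for sex with 1 sign in all bulls, up to 4 per direction and pair of bulls, the X-linked member, the 3 smallest interaction p-values, the 6 highest and 6 lowest levels, examples of 2 role lists, and TRIM28, SETDB1, ZFX, CTCF and 6 partners. The members, lists and tests were chosen with earlier results of these data known.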

Additional observations from a re-analysis of the deposited data

Results flagged for a closer look

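In 74 groups of arrays of named genes, a single array far from all others of its sex or bull was looked for with Dixon's test at its usual critical value, which flags about 1 group in 20 by chance. It found 5. In males, ZNF414 read 6.31 on replicate 3 of male bull 3, with the next array at 6.83. In females, ZNF362 read 3.86 on replicate 2 of female bull 2, with the next at 4.32. In bull 1, ZNF181 read 4.94 on replicate 2 of male bull 1, with the next at 5.86. In bull 3, ZNF207 read 5.75 on replicate 3 of male bull 3, with the next at 6.85. SETDB1 read 7.24 in females on replicate 3 of female bull 1, with the next at 7.08. All but the ZNF362 reading come from arrays of wide spread named in the text.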

How the results depend on the processing

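The 17 genes that differed by sex were also the 17 called with the replicate number as a block. Same-numbered arrays did not deviate together (median correlation 0.00145), and with this replicate block 1 gene was called for sex in bull 1 and 1 between bulls 2 and 1. All counts of called genes in this section are of ZNF genes alone. The share of all genes called under each setting was not counted, so a changed count cannot be read as particular to ZNF genes. Array weights gave 12 genes for each sex, 6 called in bull 2, 15 in bull 3, 5 between bulls 2 and 1, 9 between bulls 3 and 1 and 10 between bulls 3 and 2. Without bull 1, 4 genes were higher in males. Without bull 2, 7 genes differed by sex (3 higher in females, 4 in males), and without bull 3, 6 (4 and 2). Without the arrays of wide spread the counts for sex were 1 in bull 1, 4 in bull 2 and 6 in bull 3, and for bulls 1 (2 against 1) and 2 (3 against 1). In bull 1, 4 genes passed among the brighter 50% of probe sets and after quantile normalization, and 1 with an intensity trend, with the 5' minus 3' covariate or with the mean over probe sets. An intensity trend gave 9 genes in each direction for sex and 4 between bulls 2 and 1. Female arrays alone gave 1 between bulls 2 and 1, and male arrays alone 0 in each pair of bulls, with fewer arrays. The 5' minus 3' covariate gave 0 between bulls 3 and 1 and 1 between bulls 3 and 2, and for sex 10 genes in each direction. With the mean over probe sets ZNF462 was reversed (-0.00037, adjusted p = 0.998), and ZNF414, ZNF317 and ZNF622 lost their calls. With the array-wide median as the limit, 24 genes were near background. Leaving out 1 array in turn gave 12 to 18 genes for sex (6 to 9 higher in females, 5 to 10 in males), 12 without replicate 1 of female bull 3 or replicate 2 of male bull 2. Within bulls it gave 0 to 4, 1 to 3 and 0 to 3 genes, for the interaction 0 to 0, and between bulls 1 to 3 (2 against 1), 1 to 5 (3 against 1) and 1 to 6 (3 against 2). The cause of these changes was not tested.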
